A study of Rattus norvegicus with 7 samples.

Results

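The proteins of the mitochondrial ribosome were followed at the transcript level in NR8383 cells, a rat alveolar macrophage line. They were taken as all array probes that are not controls and whose gene name in the files is Mrpl or Mrps with a number and at most 1 small letter. The rule found 90 probes of 45598, printed as 106 spots, under 70 of the 36174 gene names in the files. Of these names, 41 are large-subunit names (Mrpl) and 29 are small-subunit names (Mrps). The files spell Mrpl9, Mrpl11 and Mrpl24 with a small first letter, so the rule leaves them out.

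Total RNA was hybridised to 1-color Agilent arrays of the rat, 1 array per biological replicate. The control group was 4 replicates of untreated cells and the ZnO group was 3 replicates exposed for 4 h to zinc oxide nanoparticles. By the methods of the study, the exposure medium held no serum, and no separate medium is given for the control cells. The labels give a dose of 2 µg/mL, whereas the methods of the study give another, so the groups are named only control and ZnO. All samples come from 1 cell line and 1 exposure time.

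Mitochondria hold their own ribosomes, which translate the few proteins that mitochondrial DNA encodes, all of them core subunits of the respiratory chain and of ATP synthase. The ribosomal RNAs are made inside the organelle, while each mitochondrial ribosomal protein is encoded in the nucleus, translated in the cytosol and imported. Many of these proteins have a bacterial counterpart and others are found only in mitochondria. In macrophages, mitochondrial respiration and its products are tied to the inflammatory state of the cell.

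Each array probe is a sequence of 60 bases, and the value of a gene is the signal of that stretch alone. The probe of Mrps31, a protein found only in mitochondrial ribosomes, lies at chr16:74250165-74251072, minus strand of rn4, the build of the files. It spans more bases there than it holds, so that its bases are not contiguous in the genome, and it is shown because this gene had the smallest unadjusted p among the members. A pair of Mrpl30 probes is shown because they hold a common run of 33 bases, in capitals, and so are not independent measures of the gene. Of the Mrps15 probe the first 30 bases are shown, since this gene had the widest interval of all members. The capitals in it mark a run of 16 bases that 10 of 27457 RefSeq promoter windows of the rat also hold. The files hold no exon or UTR annotation of these probes.
Mrps31 probe: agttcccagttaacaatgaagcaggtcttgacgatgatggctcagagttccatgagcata
Mrpl30 probe, first: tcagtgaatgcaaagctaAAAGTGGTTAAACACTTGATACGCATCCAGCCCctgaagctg
Mrpl30 probe, second: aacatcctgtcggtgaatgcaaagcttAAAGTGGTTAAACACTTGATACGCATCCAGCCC
Mrps15 probe, first bases: tctgtatagttcTGGCTGTCCTGGAACTct

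Values are log2 intensities relative to the 75th percentile of the array, so that 0 is the level of that percentile, and differences are ZnO minus control. Over the arrays, the 75th percentile intensity was 958 to 1489 in control and 980 to 1603 after ZnO, 51.7 to 56.0% of spots were well above background, and no spot was saturated. The extraction software marked control 3, control 4, ZnO 2 and ZnO 3 for evaluation and the other arrays as in range. Array weights estimated in limma were lowest for ZnO 1 (0.36) and highest for ZnO 2 (2.50). All arrays came from 1 slide and 1 scan, and control and ZnO arrays filled separate columns of that slide, for which reason exposure and place on the slide cannot be told apart. In bulk RNA, fewer cells and less RNA per cell cannot be told apart. As a check of the exposure, the metallothioneins Mt2A and Mt1a, which bind zinc, rose by 5.83 and 3.40 log2 units (limma, adjusted p = 3.80e-06 and 3.68e-05). Of the 11 macrophage markers with a probe, 10 were well above background on every array and Marco, a scavenger receptor of alveolar macrophages, on none. Of the other cell types, Cd3e, Epcam, Cdh1, Col1a1, Kdr and Pdgfra were well above background on no array, whereas Cd3d, Cdh5 and Col1a2 were on all.

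Nearly all transcripts of the mitochondrial ribosomal proteins were detected in these macrophages, and none of the 68 genes tested was called higher or lower after ZnO. Of the 90 probes, 82 were well above background on all 7 arrays and 5 on no array. The test took probes with a signal well above background on every array of 1 group or both, which left 83 probes and 68 genes, and each of the 68 genes is given by its brightest tested probe. Those 68 probes were all above background on all arrays, so that no gene entered through 1 group alone.
No gene of the 68 passed an adjusted p of 0.05 in limma, in either direction, where 0.0499% of all 20050 tested probes did (10 probes, all higher after ZnO). The smallest adjusted p among members was 0.786. At an unadjusted p under 0.05, 1 member was higher, Mrps31, and 1 was lower, Mrps2, beside 3.06% and 2.86% of all tested probes (5.93% in both directions). At the stricter thresholds of the study (1.5-fold with an adjusted p under 0.001), no member was called, beside 0.02% of the tested probes. Leaving out 1 array moved the unadjusted counts. The count of higher members was 0 without control 1, control 3, ZnO 2 or ZnO 3 and 3 without ZnO 1, and the count of lower members was 0 without control 3, ZnO 1 or ZnO 3 and 2 without control 4.

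**Figure D1:**
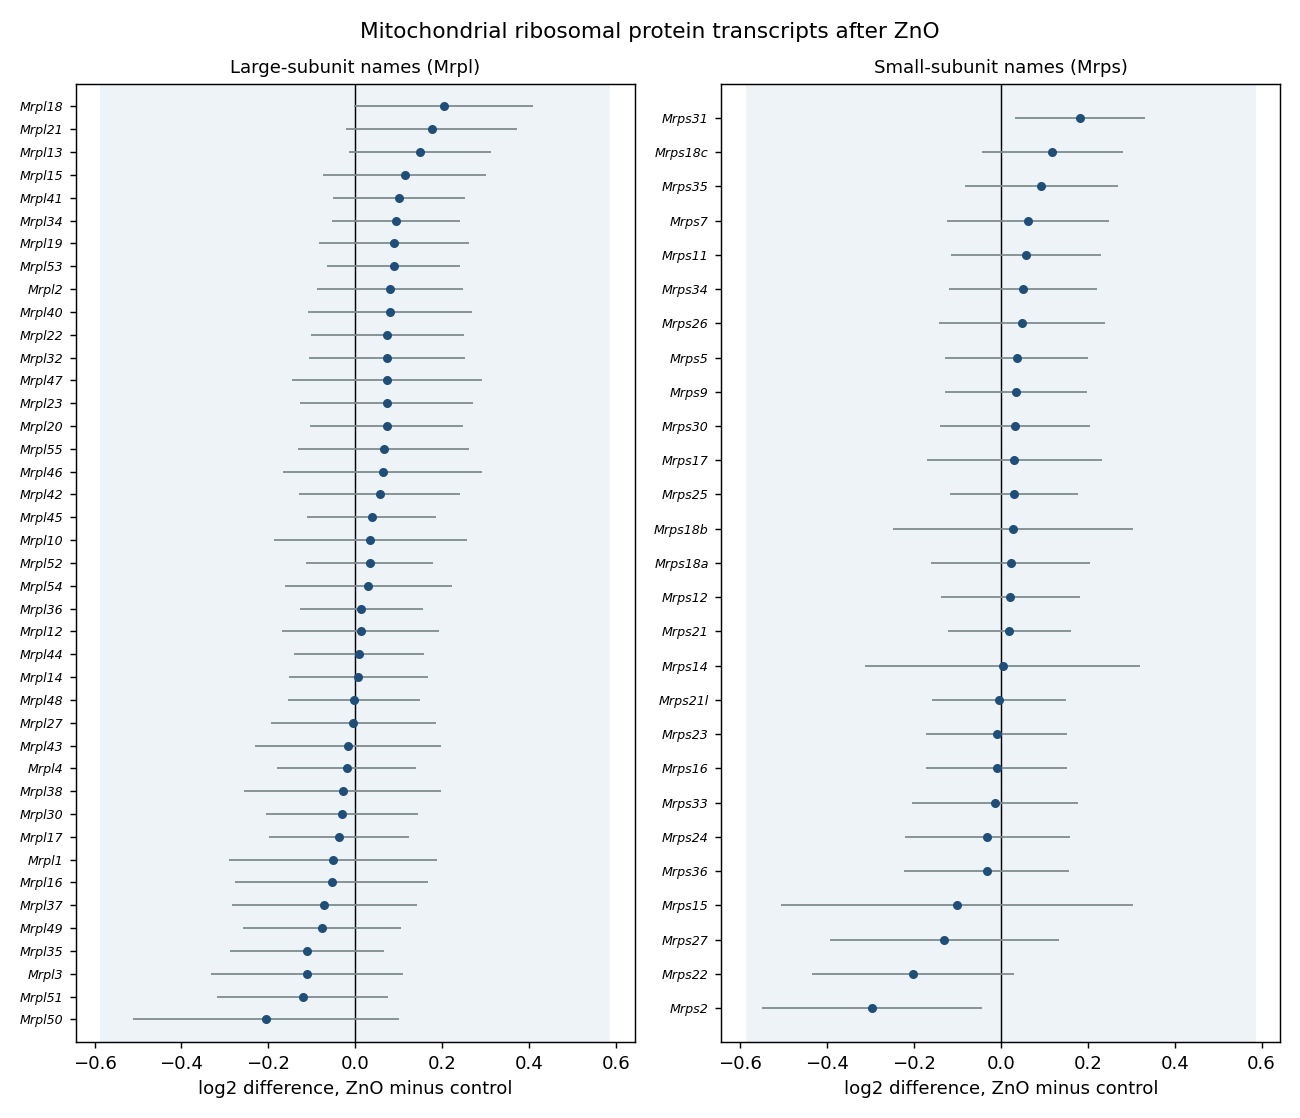
Log2 difference (ZnO minus control, x axis) of each of the 68 tested members, by large-subunit and small-subunit names. Points are limma estimates, lines are 95% intervals, and the shaded band is a 1.5-fold change either way. Every interval lies inside the band, and the points lie between -0.30 and 0.20.

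The arrays bounded the change of each member closely. The 68 differences ran from -0.30 (Mrps2) to 0.20 (Mrpl18), with a median of 0.03 beside -0.01 over all tested probes. The 95% interval of every one of the 68 genes lay within a 1.5-fold change, against 82.7% of the tested probes, and the outermost limit was a change of 1.46-fold. With the arrays centred on the E1A spike-in probes, no member interval lay within 1.5-fold. For 59 members (86.8%) the interval lay within a 1.25-fold change, against 44.9% of the tested probes. Over all 10007 named genes, each by its brightest tested probe, the shares were 87.8% within 1.5-fold and 54.6% within 1.25-fold, and over the 83 member probes 96.4% and 84.3%. The median half-width of an interval was 0.18 log2 units for members and 0.25 for all tested probes, and the members' median signal was the higher one (1.14 against -1.72 log2 units over the 75th percentile). Beside tested probes of the same range of signal, the median half-width was 0.22 against 0.23 in the dimmest 23 members, 0.17 against 0.20 in the middle 22 and 0.18 against 0.19 in the brightest 23.
Of the 68 members, 43 (63.2%) were above 0 beside 47.9% of all tested probes, against 38.2% beside 34.6% after median centring and 95.6% beside 86.4% after spike-in centring. Spike-in centring moved the median of all tested probes to 0.14 and that of the members to 0.18. By signal, 9 of the dimmest 23 members, 18 of the middle 22 and 16 of the brightest 23 were above 0, beside 45.8, 49.5 and 52.3% of tested probes in the same ranges. Large-subunit and small-subunit names had medians of 0.03 and 0.02. Genes with a bacterial homologue had medians of 0.05 (24 genes of the large subunit) and 0.02 (13 of the small subunit), and genes found only in mitochondria had 0.02 (16) and 0.03 (9).

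Array by array, the members differed little. The median deviation of the 68 genes from their control means was -0.06, 0.02, 0.04 and 0.00 on control arrays 1 to 4 and 0.05, 0.00 and 0.03 on ZnO arrays 1 to 3. The ZnO medians lay within the range of the control medians except for ZnO 1, which was above control 3 by less than the spread of the control medians (SD 0.04). Control 1 held the lowest of the 7 values in 22 members (32.4%), beside 11.6% of all tested probes, and the highest in 1. Without control 1, the median difference of the members was 0.01.
The ribosomal proteins of the cytosol, a list of 81 genes, had medians of -0.03, -0.04, 0.05 and 0.00 on control arrays 1 to 4 and 0.17, -0.01 and -0.07 on ZnO arrays 1 to 3. On ZnO 1 this list and the nuclear-encoded genes of the respiratory chain and ATP synthase stood highest, at 0.17 and 0.13, where the mitochondrial ribosomal proteins were at 0.05.

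**Figure D2:**
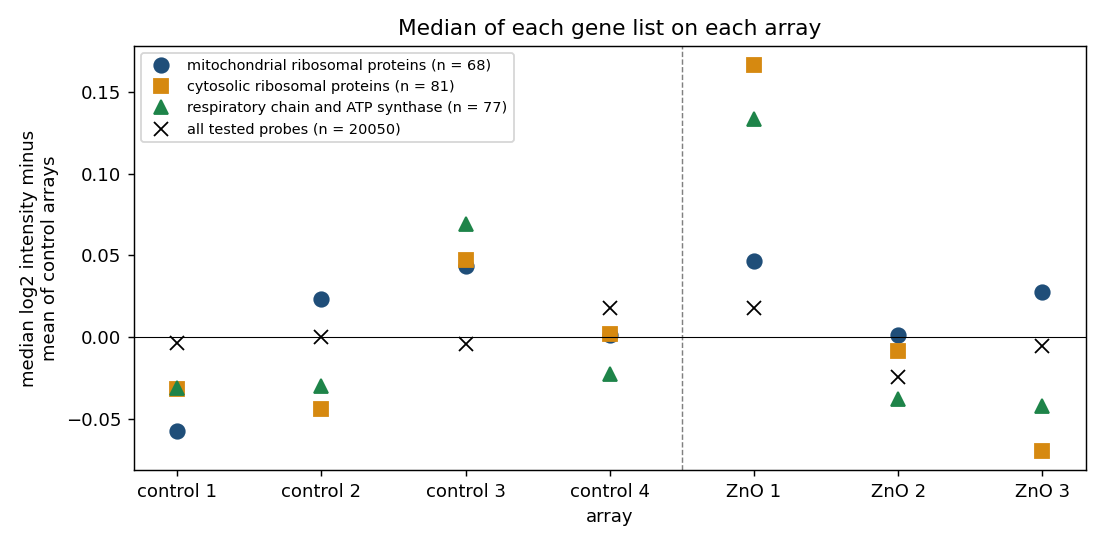
Median log2 intensity of each gene list on each array, relative to the mean of the control arrays (y axis), for the 7 arrays (x axis). The dashed line parts control from ZnO. The members lie between -0.06 and 0.05 on all arrays, and the other lists reach 0.17 and 0.13 on ZnO 1.

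The members with the highest differences were Mrpl18, Mrps31, Mrpl21, Mrpl13 and Mrps18c, and none of them passed the adjusted test. Mrps31 was 0.31, 0.36, 0.29 and 0.37 on control arrays 1 to 4 and 0.45, 0.54 and 0.55 on ZnO arrays 1 to 3. All ZnO arrays were above all control arrays. The mean was 0.33 ± 0.04 (SD, n = 4) in control and 0.51 ± 0.05 (SD, n = 3) after ZnO, a difference of 0.18 log2 units (95% interval 0.03 to 0.33, limma, unadjusted p = 0.0233, adjusted p = 0.786).
Mrpl18, a homologue of bacterial L18, which binds 5S rRNA, was 0.57, 0.64, 0.66 and 0.47 on control arrays 1 to 4 and 0.64, 0.88 and 0.85 on ZnO arrays 1 to 3. ZnO 2 and ZnO 3 were above all controls and ZnO 1 was among them. The difference was 0.20 (95% interval -0.002 to 0.41, limma, adjusted p = 0.844).
Mrpl21, a homologue of bacterial L21, was -0.76, -0.68, -0.69 and -0.95 on control arrays 1 to 4 and -0.63, -0.57 and -0.59 on ZnO arrays 1 to 3. The groups did not overlap, and control 4 was the lowest array. The difference was 0.18 (95% interval -0.02 to 0.37, limma, adjusted p = 0.867).
Mrpl13, a homologue of bacterial L13, was 2.28, 2.29, 2.29 and 2.17 on control arrays 1 to 4 and 2.34, 2.41 and 2.47 on ZnO arrays 1 to 3, with no overlap and again control 4 lowest. Its difference was 0.15 (95% interval -0.01 to 0.31, limma, adjusted p = 0.867). Mrps18c, 1 of the homologues of bacterial S18, was 1.19, 1.29, 1.34 and 1.20 on control arrays 1 to 4 and 1.41, 1.35 and 1.36 on ZnO arrays 1 to 3. The groups did not overlap, by a margin under 0.01 between control 3 and ZnO 2.

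The members with the lowest differences were Mrps2, Mrpl50, Mrps22, Mrps27 and Mrpl51. Mrps2, a homologue of bacterial S2, was -2.46, -2.37, -2.28 and -2.05 on control arrays 1 to 4 and -2.69, -2.50 and -2.57 on ZnO arrays 1 to 3, and every ZnO array was below every control array. The mean was -2.29 ± 0.18 (SD, n = 4) in control and -2.59 ± 0.09 (SD, n = 3) after ZnO, a difference of -0.30 (95% interval -0.55 to -0.04, limma, unadjusted p = 0.0273, adjusted p = 0.808). Mrpl50, found only in mitochondrial ribosomes, was -0.76, -0.50, -0.62 and -0.43 on control arrays 1 to 4 and -1.06, -0.64 and -0.64 on ZnO arrays 1 to 3.
ZnO 1 was the lowest array, and the other ZnO arrays lay within the control range. The difference was -0.20 (95% interval -0.51 to 0.10). Mrps22, found only in mitochondria, was -1.95, -1.83, -1.64 and -1.94 on control arrays 1 to 4 and -1.93, -2.07 and -2.12 on ZnO arrays 1 to 3, with ZnO 1 among the controls and a difference of -0.20 (95% interval -0.43 to 0.03).
For Mrps27, a pentatricopeptide repeat protein that binds RNA, the difference was -0.13 (95% interval -0.39 to 0.13) and for Mrpl51 -0.12 (95% interval -0.32 to 0.08), and the groups overlapped in both. A second, dimmer Mrps27 probe gave 0.02. Over all 68 members, the ZnO arrays were all above the controls in 6 (Mrpl13, Mrpl21, Mrpl34, Mrpl41, Mrps18c and Mrps31) and all below in 1 (Mrps2), beside 3.8% and 3.59% of the tested probes (7.39% in both directions).

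**Figure D3:**
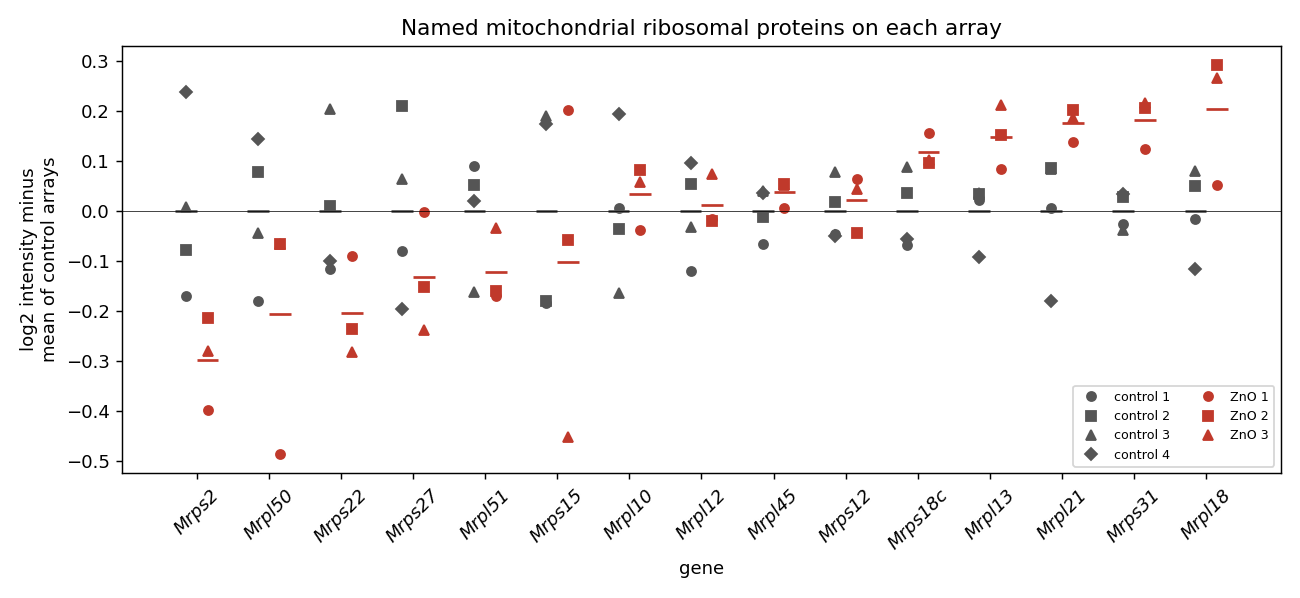
Log2 intensity of 15 named members on each array, relative to the mean of the control arrays (y axis), with grey for control and red for ZnO. Marker shapes give the replicate number and short bars the group means. Mrps2 (-0.30) and Mrpl18 (0.20) have the outermost means, and the ZnO arrays of Mrps15 and Mrpl50 spread widest.

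Mrps15, a homologue of bacterial S15, gave the least precise value of all members. It was -0.47, -0.47, -0.10 and -0.11 on control arrays 1 to 4 and -0.08, -0.34 and -0.74 on ZnO arrays 1 to 3. ZnO 3 was the lowest of the 7 arrays and ZnO 1 the highest, and both groups were spread. The mean was -0.29 ± 0.21 (SD, n = 4) in control and -0.39 ± 0.33 (SD, n = 3) after ZnO, a difference of -0.10 (95% interval -0.51 to 0.30, limma, adjusted p = 0.999).
The difference was -0.25 without ZnO 1 and 0.07 without ZnO 3. The half-width of its interval, 0.41, was the largest of the members, followed by Mrps14 at 0.32 and Mrpl50 at 0.31. Its probe lies at chr5:145408255-145408314, plus strand, and the run in capitals above is part of it. Runs of 16 bases of this probe occur in 14 of the 27457 promoter windows, while the median of the other 89 member probes is 0. The Mrpl10 probe shares such runs with 61 windows and had a half-width of 0.22. Of all tested probes, 268 (1.34%) shared runs with at least 14 windows, and their median half-width was 0.32 against 0.24 for the others. Whether RNA of other genes adds to the Mrps15 signal was not tested. The study reports Mrps15 as upregulated after ZnO, among its regulators of protein synthesis. Here it was not called, and with the reported scaling the upper limit of its interval was a 1.23-fold rise. The study gives a larger rise than this limit. The limit depends on the scaling. With spike-in centring the Mrps15 difference was 0.05, and no member interval, that of Mrps15 included, lay within 1.5-fold. At the thresholds of the study, 4 of the 20050 tested probes were called here. The study reports many more genes, so the gap is not confined to Mrps15. Why these results differ was not tested.

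**Figure D4:**
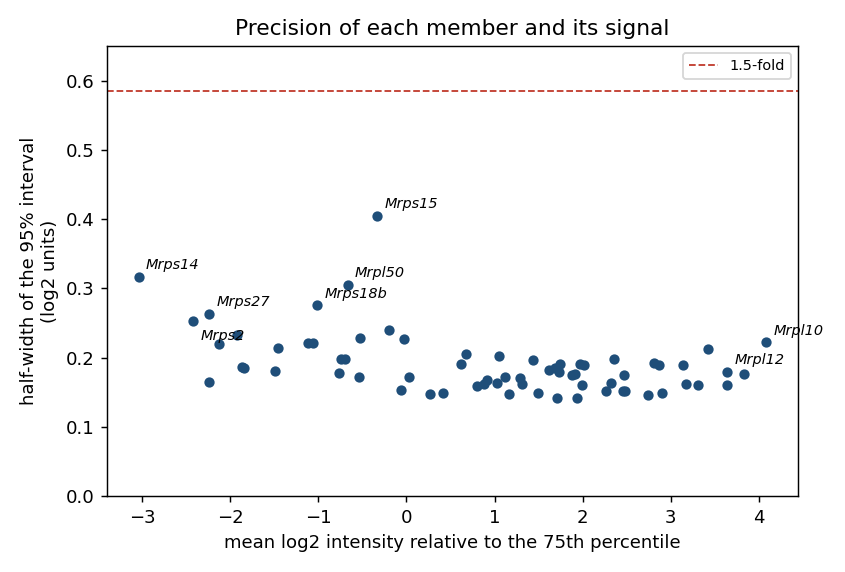
Half-width of the 95% interval of each of the 68 members (y axis, log2 units) against the mean log2 intensity of its probe relative to the 75th percentile (x axis). The dashed line is a 1.5-fold change. Mrps15 stands highest at 0.41, followed by Mrps14 at 0.32, the dimmest of these 68 probes.

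The functional regions of the ribosome held no member that passed the test. In the stalk that binds the elongation factors, the difference was 0.03 for Mrpl10 (95% interval -0.19 to 0.26) and 0.01 for Mrpl12 (95% interval -0.17 to 0.19). Mrpl12 was 3.51, 3.69, 3.60 and 3.73 on control arrays 1 to 4 and 3.61, 3.61 and 3.71 on ZnO arrays 1 to 3, fully mixed between the groups.
Around the exit of the tunnel through which the new protein leaves, Mrpl22, Mrpl23 and Mrpl47 had differences of 0.07, 0.07 and 0.07. Mrpl45, which anchors the ribosome to the inner membrane, was 2.82, 2.87, 2.93 and 2.92 on control arrays 1 to 4 and 2.89, 2.94 and 2.94 on ZnO arrays 1 to 3. The difference was 0.04 (95% interval -0.11 to 0.19), with the groups overlapping.
For the central protuberance, on top of the large subunit, 4 genes were listed. Their differences were -0.03 for Mrpl38, 0.08 for Mrpl40, 0.06 for Mrpl46 and -0.003 for Mrpl48. Near the decoding centre and the mRNA channel of the small subunit, Mrps12, the homologue of bacterial S12, was 1.93, 2.00, 2.06 and 1.93 on control arrays 1 to 4 and 2.04, 1.94 and 2.02 on ZnO arrays 1 to 3. Its difference was 0.02 (95% interval -0.14 to 0.18), and that of Mrps5 and Mrps24 was 0.04 and -0.03. Mrps18a and Mrps30 carry small-subunit names but sit in the large subunit, and their differences were 0.02 and 0.03. Adjusted p in limma was at least 0.973 for each gene named here by its region, and the groups overlapped for each. The lists of these regions held 2 to 4 genes each and need not be complete.

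Several probes were tested for 13 genes, and in 12 of them each tested probe had a signal well above background on all 7 arrays. Of these 12, 6 had probes of opposite sign, and in all 12 the 95% intervals shared a value. In the other, Mrps33, a small-subunit protein, the bright probe gave -0.01 (95% interval -0.20 to 0.18).
The second Mrps33 probe is on the opposite strand, was named from an expressed sequence tag, and was well above background on 2 of 4 control arrays and all 3 ZnO arrays, so it was tested through the ZnO group alone and nothing is read from its difference. Its values were -6.27, -5.26, -4.96 and -5.93 on control arrays 1 to 4 and -5.18, -5.10 and -4.96 on ZnO arrays 1 to 3, and the groups overlapped.
For Mrps21 the bright probe gave 0.02 and the dim one 0.33 (95% interval -0.49 to 1.15), and for Mrps35 0.09 and 0.29 (95% interval -0.42 to 1.01). Mrpl40 gave 0.08 by its brightest probe and -0.06 by each of the others, with a mean over probes of -0.01, and Mrps27 gave -0.13 and 0.02, with a mean of -0.06. The Mrpl30 probes printed above gave -0.04 and 0.01. Mrpl45 and Mrpl41 were each measured by a pair of probes that share 57 and 41 bases, at 0.04 and 0.05 for Mrpl45 and 0.10 and 0.05 for Mrpl41.

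**Figure D5:**
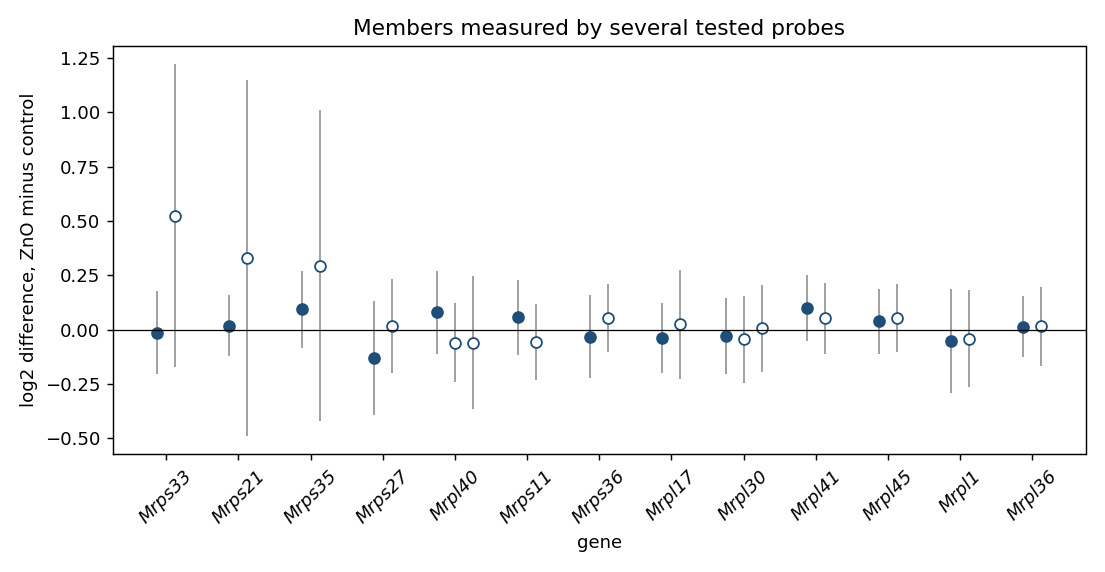
Log2 difference (ZnO minus control, y axis) of each tested probe of the 13 genes with several tested probes (x axis), with 95% intervals. Filled points are the brightest probe of a gene and open points the others. The open points of Mrps21 and Mrps35, at 0.33 and 0.29, have wide intervals, and that of Mrps33 was tested through the ZnO group alone.

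The 7 member probes that were not tested were dim. The only probe of Mrps28, a small-subunit protein, was well above background on no array, as were the second probe of Mrpl15, a Mrps21 probe on the opposite strand, and 2 Mrpl30 probes of identical sequence. Mrps28 is therefore without a measured level, while Mrpl15, Mrps21 and Mrpl30 were measured by brighter probes. Mrps10, a homologue of bacterial S10, was well above background on 3 of 4 control and 2 of 3 ZnO arrays, at -5.22, -5.35, -4.81 and -5.52 on control arrays 1 to 4 and -5.46, -5.47 and -5.61 on ZnO arrays 1 to 3. The second probe of Mrpl47 was well above background on 3 of 4 control arrays and no ZnO array, at -5.51, -5.35, -6.67 and -3.98 on control arrays 1 to 4 and -6.08, -5.55 and -5.91 on ZnO arrays 1 to 3, where control 3 was the lowest array and control 4 the highest.
The bright Mrpl47 probe gave 0.07 (95% interval -0.15 to 0.29).

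The other genes of mitochondrial translation, taken from 5 lists outside the naming rule, held no gene past the adjusted test either. Of their 60 tested genes, 1 was higher and 5 were lower at an unadjusted p under 0.05, beside 3.06% and 2.86% of all tested probes, with a median of -0.01. Among the 17 aminoacyl-tRNA synthetases, which charge the mitochondrial tRNAs, 4 were lower, beside 2.86% of all tested probes, and 13 lay below 0, beside 10455 of the 20050 tested probes, with a median of -0.08. The 4 were Fars2, which had the smallest p of the list, and Aars2, Cars2 and Tars2, and all were named for their values.
Fars2, the phenylalanyl-tRNA synthetase, was -2.51, -2.60, -2.39 and -2.27 on control arrays 1 to 4 and -2.72, -2.73 and -2.85 on ZnO arrays 1 to 3. All ZnO arrays were below all controls, with a difference of -0.33 (95% interval -0.54 to -0.11, limma, adjusted p = 0.695). Among 10 translation factors, Mtif3, an initiation factor, was -3.88, -3.99, -4.14 and -4.08 on control arrays 1 to 4 and -4.21, -4.46 and -4.52 on ZnO arrays 1 to 3.
Its groups did not overlap either, and the difference was -0.37 (95% interval -0.61 to -0.14, limma, adjusted p = 0.649). Mtrf1l, a release factor named after its value was seen, was the 1 higher gene, at 0.31 (95% interval 0.11 to 0.51).
The gene with the smallest unadjusted p was Mtg2 (-0.13), a GTPase of ribosome assembly, among 19 assembly and rRNA modification genes, Polrmt (-0.15), the mitochondrial RNA polymerase, among 8 genes of transcription and mRNA handling, and Ptcd3 (-0.11), a small-subunit protein, among 6 ribosomal proteins under other names. These 3 lists held no gene at an unadjusted p under 0.05.
The genes that the files spell mrpl9 and mrpl11 had differences of -0.05 and 0.11, and the mrpl24 probes had -0.01 and -0.05, with overlapping groups in each.
The 81 ribosomal proteins of the cytosol had a median of 0.02 and no gene at an unadjusted p under 0.05, with Rpl22 nearest (0.13). Of 77 tested genes of the respiratory chain and ATP synthase, 3 were higher at an unadjusted p under 0.05 and none lower, beside 3.06% and 2.86% of all tested probes, with a median of 0.01. Among them was Cox7c, a subunit of cytochrome c oxidase, at 0.28 (limma, adjusted p = 0.495). Its probe was dim, with a control mean of -2.25 beside a median level of 3.49 over the list. Atp5g3, a subunit of ATP synthase named after its value was seen, was another, at 0.32 (limma, adjusted p = 0.794).

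Promoter sequence was set beside the values, since nuclear respiratory factor 1 (NRF-1) and ETS factors such as GABP are known regulators of nuclear genes for mitochondrial proteins. A RefSeq promoter window (GRCr8) was matched by symbol for 54 of the 70 genes, and the 250 bases before the start were searched on both strands. The NRF-1 motif (GCGCA and GCGC parted by 1 base) was in 6 (11.1%), against 4.17% of all 27457 windows, and the ETS motif CCGGAAG in 10 (18.5%), against 7.74%. The letters AAGATGGC of the YY1 motif were in 3 (5.56%, against 1.69%), CCAAT in 24 (44.4%, against 34.3%) and TATAAA in 7 (13.0%, against 13.1%). No gene held both the NRF-1 and the ETS letters (16 genes held either), and the letters mark no measured binding.
The stretches below show the ETS letters before Mrps31 and, on the other strand, before Mrps18c, which had differences of 0.18 and 0.12, and the NRF-1 letters before the membrane anchor Mrpl45, with the motif in capitals. In GRCr8 they lie at chr16:76324128-76324187, minus strand, chr14:9123014-9123073, minus strand, and chr10:82804869-82804928, plus strand, each written along the strand of its gene.
The other 8 members with the ETS letters include Mrps27 (-0.13), among the lowest differences, and Mrpl48 (-0.003).
Mrps31: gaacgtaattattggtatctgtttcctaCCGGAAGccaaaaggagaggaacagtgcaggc
Mrps18c: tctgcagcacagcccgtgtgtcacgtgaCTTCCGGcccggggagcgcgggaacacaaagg
Mrpl45: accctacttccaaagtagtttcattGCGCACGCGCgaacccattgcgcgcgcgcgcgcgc

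Members with and without the motifs had near-equal differences. The median was 0.02 for the 6 with the NRF-1 letters and 0.03 for the 47 tested genes without them, and 0.03 for the 10 with the ETS letters and 0.03 for the 43 without.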

How the data were processed

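RNA of 4 control and 3 ZnO-exposed cultures of NR8383 cells was measured, with groups taken from the labels. The authors extracted each array with Agilent Feature Extraction 11.0.1.1 and used percentile normalization in GeneSpring. The deposited single-array files hold background-subtracted spot intensity, not scaled between arrays. A deposited table of the whole series holds, for each spot, the median intensity of the scanner, and served only as an alternative. Control spots and outlier spots were left out, the log2 intensity was taken relative to the 75th percentile of each array, and spots of 1 probe were averaged. The fit was made in limma 3.58.1 (lmFit, eBayes and no covariate; R 4.3.3), and p-values were adjusted by Benjamini-Hochberg over 20050 probes, those with signal well above background throughout 1 group or both. The script was tested on simulated data. Precision is limited by how few arrays there are. Of the 90 probes, 83 carry the same symbol in the current rat annotation by their accession, 2 (Mrps36) are now Kgd4 and 5 had no match. Kgd4 is not a ribosomal protein name, and Mrps36 stayed among the members only by the naming rule. Named members were Mrps15, which the study names, the 5 highest and 5 lowest differences and the 5 smallest unadjusted p. Also named were the genes listed for 4 functional regions, Mrps18a and Mrps30, and the 3 genes whose probes lay farthest apart. Genes with no probe above background were named too. Outside the members, the gene with the smallest p of each list was named. The members and lists were chosen with earlier results of these data known. Python 3.11.15, pandas 2.3.3 and matplotlib 3.10.9 were used for tables and plots. Values of a few genes outside the members are not reported here.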

Additional observations from a re-analysis of the deposited data

Results flagged for a closer look

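In 4 of 29 named members, 1 of the 4 control arrays lay so far from the others that its gap to the nearest one, as a share of the group's range, was above the 95% critical value of Dixon's test, which chance passes in about 1 of 20 such groups. Control 4 was the low array for Mrps30 (0.932 of the range), Mrps5 (0.911) and Mrpl13 (0.884), and control 3 was the high array for Mrps35 (0.913). The log2 values of Mrps30 on control arrays 1 to 4 were 1.12, 1.13, 1.13 and 1.04, so that the gap was below 0.1 log2 units. Control 4 had the lowest 75th percentile intensity of the control arrays, 958. The group of 3 ZnO arrays is too small for this check.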

How the results depend on the processing

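No member and no gene of the 5 mitochondrial translation lists passed an adjusted p of 0.05 under any of the 18 alternatives, 7 of which left out 1 array each. At an unadjusted p under 0.05, the number of higher members was 0 with median centring, spike-in centring, the deposited table or no filter on dim probes, 2 with quantile normalization, normexp or the filter on all 7 arrays, 3 with trended and robust variance and 4 with array weights, and from 0 to 3 with 1 array left out. The number of lower members was 0 with spike-in centring, normexp, the deposited table or no filter and 2 with array weights, and from 0 to 2 with 1 array left out. The members' median was -0.01 with median centring and 0.18 with spike-in centring, and 0.01 to 0.03 with 1 array left out. Intervals within 1.5-fold numbered 0 of 68 with spike-in centring and 65 to 68 with 1 array left out. Probes called over the whole array were 5 higher with spike-in centring or no filter, against 10, and from 7 to 13 with 1 array left out. Lower calls were 1 with quantile normalization or median centring, 3 with array weights and 4 with trended and robust variance, and from 0 to 1 with 1 array left out. Pathway genes at an unadjusted p under 0.05 numbered 6 in the reported fit and 9 with array weights. They numbered 0 with spike-in centring, 2 with the deposited table and 3 with normexp or no filter, and from 3 to 8 with 1 array left out. The cause of these moves was not tested. Of 522 values of the 29 named members under the alternatives, 482 stayed within 1 SD of the control arrays and 40 moved further.

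Correlations of same-numbered deviations from the group means were -0.09, 0.21 and -0.23, and those of differently numbered arrays ran from -0.40 to 0.33. With so few arrays, these values cannot decide whether the replicate numbers pair the cultures. With the replicate block there were 0 higher and 0 lower members at an unadjusted p under 0.05, a member median of 0.02, 67 of 68 intervals within 1.5-fold, 4 probes called higher over the array, and 3 pathway genes at an unadjusted p under 0.05. The slide as a block was not run, since all arrays share 1 slide. The number of arrays and the signal over background limit what could be called.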
